A study of Homo sapiens with 16 samples.

Results

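Solute carriers are the large group of membrane proteins that move ions, sugars, amino acids, nucleotides, vitamins and metals across the plasma membrane and the membranes of organelles, and their gene symbols begin with SLC and a family number. The genes described here are 159 of the 383 SLC symbols on the array, chosen by their log2 intensity: they had at least 6.5 in 4 or more of the 12 arrays of replicates 2 to 4, each read from its probe of highest mean. The rule used the level of each gene over all groups, so the levels describe the choice of genes and are not tested. The other 224 symbols did not reach that level and have no values here beyond those at its edge. Of the 159 genes, 130 reached the level in all 12 arrays, 29 in 4 to 11 of them, and 13 of these 29 in no more than 6. Just inside the edge lay SLC30A6, SLC38A6 and SLC12A2-DT, whose values in the array that ranks number 4 of the 12 were 6.51, 6.51 and 6.52, and just outside lay SLC35D4 at 6.43, SLC25A35 at 6.39 and SLC25A37 at 6.37.

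ME180 is a human cell line from an omental metastasis of a cervical epidermoid carcinoma, a tumour of squamous cells. The cells were given either the vehicle DMSO, for which no treatment time is labelled, or all-trans retinoic acid (ATRA) at 10 µM, with 1, 3 or 6 h of exposure and 4 arrays in each of the 4 groups. All groups share the same line and serum-containing medium. Biotin-labelled cRNA was read on Illumina bead arrays, and nothing in the labels says that replicates are separate cultures, so a p-value weighs a difference against array-to-array spread, which may be technical. In bulk RNA of this kind, fewer cells with a transcript and less transcript per cell cannot be told apart.

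ATRA is the acid form of vitamin A. It binds nuclear retinoic acid receptors, which sit on DNA with retinoid X receptors and raise the transcription of target genes when bound, among them CYP26A1 and CYP26B1, whose products oxidise ATRA. In squamous epithelium retinoids are known for holding back keratinization. Solute carriers work as uniporters, symporters or exchangers, and most take their driving force from gradients of sodium or protons or from the exchanged substrate. The genes fall into substrate classes by family: the 2 SLC20 genes for inorganic phosphate, the SLC25 mitochondrial carriers, the SLC30 zinc exporters and SLC39 zinc importers, the SLC35 transporters of nucleotide sugars in the Golgi and endoplasmic reticulum, and families for amino acids, sugars, vitamins and organic ions.

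Promoter windows are shown for the 2 genes whose higher levels at 1 h are described first, because the same windows held one of the searched motifs. Each is the RefSeq window of 250 bases before to 50 bases after an annotated transcription start on GRCh38.p14, plus strand, with the motif in capitals. The SLC20A1 window is chr2:112645689-112645988 and the SLC25A25 window, 1 of 3 annotated for that gene, is chr9:128098257-128098556.
SLC20A1: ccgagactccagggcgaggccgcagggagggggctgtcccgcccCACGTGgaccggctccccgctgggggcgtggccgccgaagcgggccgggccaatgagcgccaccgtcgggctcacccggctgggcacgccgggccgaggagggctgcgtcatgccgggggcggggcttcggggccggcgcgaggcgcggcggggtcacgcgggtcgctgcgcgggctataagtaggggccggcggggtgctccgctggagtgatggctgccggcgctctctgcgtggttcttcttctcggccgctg
SLC25A25: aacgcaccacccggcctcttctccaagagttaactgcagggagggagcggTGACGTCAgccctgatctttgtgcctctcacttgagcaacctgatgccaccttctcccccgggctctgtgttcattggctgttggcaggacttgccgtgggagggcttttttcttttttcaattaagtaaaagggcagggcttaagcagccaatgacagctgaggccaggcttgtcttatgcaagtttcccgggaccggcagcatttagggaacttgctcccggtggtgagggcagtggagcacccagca
The capitals mark an E-box, CACGTG, at position 45 of the SLC20A1 window and a cAMP response element, TGACGTCA, at position 51 of the SLC25A25 window, counted from 1 at the 5′ end. Both strands were searched for 4 motifs that do not overlap in these windows: the AP-1 site TGANTCA, the cAMP response element, the E-box and the CArG box, which is bound by serum response factor. Of 35116 RefSeq windows of the same length, 7.26 percent held the E-box, 1.85 percent the cAMP response element, 7.71 percent the AP-1 site and 1.29 percent the CArG box. Of 14 windows of 9 of the 10 genes that passed at 1 or 3 h in either of the 2 models used, without or with a term for the replicate 1 arrays, 3 windows of 3 genes held a motif, the third being an E-box in 1 of the 3 SLC35C1 windows. The share of all RefSeq windows that held any of the 4 motifs is not given, so the count of 3 windows has no background beside it. A match describes these letters only.

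2 features of the arrays touch the results. The replicate 1 arrays, whose values were moved by 1 row over 77.6 percent of the rows as described under the processing, differed from replicates 2 to 4 in 6590 of 12467 genes and probes tested (52.9 percent, limma with Benjamini-Hochberg adjustment), and 30.6 percent were lower in replicate 1. Among the solute carrier genes 92 of 159 differed, 79 of them lower and 13 higher. The level rule read replicates 2 to 4 alone, which favours genes lower in replicate 1, so these counts only describe the chosen genes. This array set, replicate 1 against the others, is therefore also given as a term in the model. CYP26A1, the check of the treatment label, read 7.26, 8.58, 8.83 and 7.79 on the log2 scale in DMSO replicates 1 to 4 and 12.95, 4.53, 13.13 and 5.45 in the arrays labelled 6 h. The arrays labelled 6 h replicates 2 and 4 thus lay below every DMSO array for CYP26A1. In the group labelled 1 h its replicate 2 value was 7.51, inside the DMSO range, against 10.77 to 12.14 in the other arrays. That 1 h array was nevertheless above every DMSO array for CYP26B1, at 9.07 against at most 7.80. The same held for the transcription factor gene ATF3, at 10.91 against at most 8.93. CYP26B1 values labelled 6 h were 10.68, 6.70, 11.51 and 7.12 by replicate. Its DMSO values were 6.22, 6.96, 6.88 and 7.80, so the 2 low arrays fell among them and not below. Calls at 6 h and the differences of genes named at 6 h against DMSO are given with and without 6 h replicates 2 and 4, while class medians and counts of groups without overlap use all 4 arrays. The 8 squamous epithelium markers with a probe had medians of 9.71 to 13.87, and of 14 markers of leukocytes, fibroblasts and endothelium 8 stayed below 6 in every array. The others had highest values of 8.52 for CD68, 8.29 for CDH5, 7.65 for VWF, 7.18 for COL1A1, 6.96 for DCN and 6.74 for CD14. The 8 squamous epithelium markers and 5 of the 14 others were tested, not CD14, and none of those tested passed in any comparison.

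**Figure D1:**
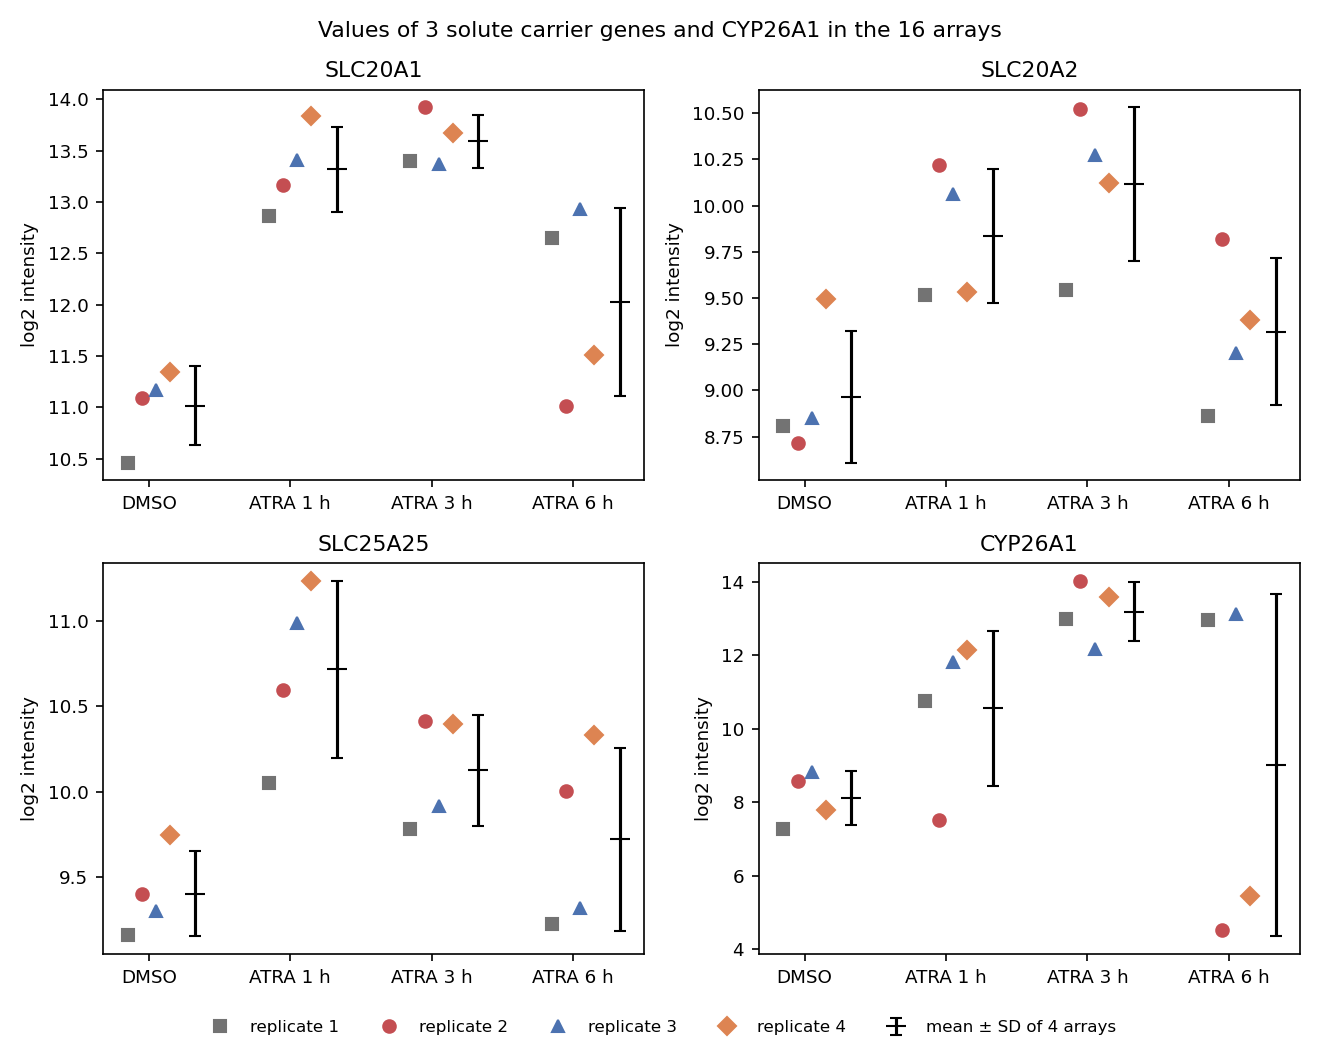
Log2 intensity (y axis) of SLC20A1, SLC20A2, SLC25A25 and CYP26A1 in the 16 arrays, by group (x axis), with symbols for the replicate number and bars for the mean ± SD of 4 arrays; each panel has its own scale, which does not start at 0. SLC20A1 is above 12.8 in all 8 arrays of 1 and 3 h and below 11.4 in all 4 DMSO arrays, and CYP26A1 splits the arrays labelled 6 h into 2 high and 2 low.

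The probes of 10 genes had the highest means over the 16 arrays, and none of the 10 except SLC20A1 passed in any comparison, with or without the array set as a term. They were SLC25A5 and SLC25A3, the mitochondrial ADP/ATP and phosphate carriers, SLC25A39, SLC7A5 and SLC3A2, the light and heavy chains of the LAT1 amino acid exchanger, SLC7A1, a transporter of cationic amino acids, SLC44A1, a choline transporter, SLC16A12, of the monocarboxylate transporter family, SLC20A1 and the transcribed pseudogene SLC7A5P2, with means between 12.14 and 14.30. SLC7A5P2 is a near copy of part of SLC7A5, so signal of the 2 genes may not be separated by their probes. The SLC7A5 probe read 13.23 ± 0.23 in DMSO, 13.22 ± 0.26 at 1 h, 13.35 ± 0.24 at 3 h and 13.44 ± 0.23 at 6 h (log2, mean ± SD, n = 4). That of its partner SLC3A2 read 12.34 ± 0.33, 12.21 ± 0.34, 12.36 ± 0.30 and 12.31 ± 0.26 in the same order. The group means of both genes thus lay within 1 SD of one another.

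ATRA for 1 h was compared with DMSO for the earliest response, and the phosphate transporter gene SLC20A1 was the 1 solute carrier gene called. SLC20A1 encodes PiT-1, a sodium-dependent symporter that brings inorganic phosphate into the cell and also serves as a receptor for gibbon ape leukemia virus. Its log2 intensities were 10.46, 11.09, 11.17 and 11.34 in DMSO and 12.87, 13.16, 13.41 and 13.84 at 1 h, in replicates 1 to 4. Every 1 h array lay above every DMSO array. The gene rose by a log2 fold change of 2.30 with an SE of 0.36, or 4.93-fold (limma, Benjamini-Hochberg adjusted p = 0.00486 over all 12467 features). The share called over all features was 0.57 percent in either direction. The call held when any 1 array was left out, with adjusted p between 0.00158 and 0.0279, with the array set as a term (adjusted p = 0.00277) and without replicate 1 (0.024), and the replicate 1 arrays alone differed by 2.40.

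SLC25A25, which encodes a calcium-regulated mitochondrial carrier of ATP-Mg and phosphate, was called at 1 h with the array set as a term. It read 9.16, 9.40, 9.30 and 9.74 in DMSO and 10.05, 10.60, 10.99 and 11.23 at 1 h, and the groups did not overlap. The log2 fold change was 1.32 with an SE of 0.29, or 2.49-fold, and limma's adjusted p was 0.0633 without the term and 0.00455 with it, where 0.938 percent of all features passed. With the term, leaving out any 1 array gave adjusted p between 0.00191 and 0.0251. A second SLC25A25 probe differed by 0.78 with an SE of 0.31 in that model and did not pass (adjusted p = 0.493). The higher level was that of 1 h: the log2 means were 9.40 ± 0.25 in DMSO, 10.72 ± 0.52 at 1 h, 10.13 ± 0.33 at 3 h and 9.72 ± 0.54 at 6 h (SD, n = 4).

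SLC20A2, which encodes PiT-2, the second sodium-dependent phosphate symporter of the family, had 8.81, 8.71, 8.85 and 9.49 in DMSO and 9.52, 10.22, 10.06 and 9.53 at 1 h. All 1 h arrays were higher than all DMSO arrays, with the lowest 1 h array and the highest DMSO array 9.52 and 9.49. The log2 fold change of 0.87 (SE 0.26, 1.83-fold) was not called by limma (adjusted p = 0.413, and 0.0676 with the array set as a term). It passed with array weights (adjusted p = 0.0186).

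Few other solute carrier genes moved at 1 h. The 2 next largest positive log2 differences were 0.63 for SLC7A6, of the y+L amino acid exchangers, and 0.48 for SLC12A2, the sodium-potassium-chloride cotransporter NKCC1. The 5 largest negative ones were -0.61 for SLC1A4, a neutral amino acid exchanger, -0.50 for the glutamate transporter SLC1A3, -0.49 for SLC61A1, a molybdate transporter, -0.48 for the choline transporter-like SLC44A2 and -0.48 for the nucleoside transporter SLC29A2, none of them called. SLC61A1 read 9.57, 10.00, 9.77 and 9.82 in DMSO and 9.43, 9.29, 9.38 and 9.09 at 1 h, with no overlap (adjusted p = 0.581, and 0.0135 with array weights). Of the 159 genes, 154 had a log2 difference below 0.5 in size, and 2 differed at least 2-fold (1.31 percent of all features did). The groups did not overlap for 3 higher genes (1.89 percent, against 1.68 percent of all features) and 2 lower ones, SLC61A1 and the zinc importer SLC39A1 (1.26 percent, against 1.68 percent). The median log2 difference of the 159 genes was -0.05, against -0.03 over all features.

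At 3 h against DMSO, SLC20A1 was again the 1 gene called, and 9 genes were called with the array set as a term, 6 higher and 3 lower. SLC20A1 read 13.40, 13.92, 13.37 and 13.67 at 3 h, all above the 4 DMSO arrays given above. It rose by 2.57 on the log2 scale (SE 0.36, 5.95-fold, limma adjusted p = 0.00576, and between 0.00205 and 0.0384 with any 1 array left out). Over all features 0.521 percent were called without the term, and 3.08 percent with it, 1.88 percent higher and 1.2 percent lower. The comparisons of 1 and 3 h use the same DMSO arrays, so they do not count as separate evidence.

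SLC20A2 read 9.54, 10.52, 10.28 and 10.12 at 3 h. Each exceeded the highest DMSO array, 9.49, the replicate 1 array by little. The log2 fold change was 1.15 (SE 0.26, 2.22-fold), with an adjusted p of 0.0723 by limma, 0.00792 with the array set as a term and 0.0478 without replicate 1. In the model with the term the call held without any 1 array, with adjusted p up to 0.0382. Both phosphate symporter genes of the SLC20 family were thus higher at 3 h, and the log2 means of SLC20A2 were 8.97 ± 0.36 in DMSO, 9.83 ± 0.36 at 1 h, 10.12 ± 0.42 at 3 h and 9.32 ± 0.40 at 6 h (SD, n = 4).

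The thiamine transporter gene SLC19A3 was higher at 3 h with the array set as a term. It read 6.41, 6.40, 6.16 and 6.83 in DMSO, 6.24, 6.19, 7.28 and 6.72 at 1 h, and 7.51, 7.89, 7.62 and 8.14 at 3 h. The 3 h arrays lay above all DMSO and all 1 h arrays, while 1 h and DMSO overlapped. The log2 fold change at 3 h was 1.34 (SE 0.31, 2.53-fold, limma adjusted p = 0.0732, and 0.029 with the array set as a term). From 1 h to 3 h the difference of 1.18 was not called (adjusted p = 0.274).

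2 genes of the SLC35 family were higher at 3 h with the array set as a term, and 1 was lower. SLC35C1 encodes the transporter of GDP-fucose into the Golgi, and it read 8.83, 9.03, 9.01 and 9.10 in DMSO against 9.47, 9.99, 10.56 and 10.15 at 3 h. The groups did not overlap, and the log2 fold change was 1.05 (2.07-fold, adjusted p = 0.163 by limma and 0.0278 with the term). SLC35A1, which carries CMP-sialic acid into the Golgi, read 9.55, 9.56, 9.63 and 9.37 in DMSO against 8.59, 8.92, 8.79 and 8.72 at 3 h. All 3 h arrays were below all DMSO arrays, a log2 fold change of -0.77 (1.71-fold lower, adjusted p = 0.074, and 0.0255 with the term). SLC35F2, a plasma membrane protein of the family, read 8.12, 9.00, 8.98 and 9.25 in DMSO against 9.16, 10.40, 9.28 and 10.31 at 3 h. Replicates 2 and 4 were the higher 3 h arrays, and replicate 1 lay inside the DMSO range. Its log2 fold change was 0.95 (1.94-fold, adjusted p = 0.258, and 0.0366 with the term), and its second probe gave 1.11 (adjusted p = 0.102, and 0.027 with the term). The other 16 of the 19 SLC35 genes were not called, and the median log2 difference of the 19 was -0.01.

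The zinc exporter gene SLC30A1, a textbook target of the metal-sensing factor MTF1, read 6.91, 7.58, 7.84 and 7.76 in DMSO and 7.91, 8.32, 8.46 and 8.10 at 3 h. The lowest 3 h array, replicate 1, stood just above the highest DMSO array. The log2 fold change was 0.68 (1.60-fold, adjusted p = 0.285 by limma and 0.0236 with the array set as a term). Its second probe gave 0.74 and did not pass, with adjusted p = 0.242 by limma and 0.0592 with the term. None of the 5 other SLC30 genes and none of the 9 SLC39 genes, which lay between -0.29 and 0.37 at 3 h, was called, and none of 4 metallothionein genes tested, also zinc responsive, passed in any comparison.

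SLC25A42, the mitochondrial carrier of coenzyme A, and SLC47A2, the proton-coupled exporter of organic cations MATE2, were lower at 3 h with the array set as a term. SLC25A42 read 8.46, 9.47, 9.27 and 8.92 in DMSO and 7.31, 7.86, 8.52 and 7.91 at 3 h. The groups overlapped through DMSO replicate 1 and 3 h replicate 3, and replicate 1 was the lowest array of both. The log2 fold change was -1.13 (2.19-fold lower, limma adjusted p = 0.257, and 0.00824 with the term, at most 0.0403 with any 1 array left out). SLC47A2 read 7.93, 9.37, 8.86 and 9.01 in DMSO and 7.18, 8.17, 8.72 and 7.97 at 3 h. These groups overlapped as well, and the log2 fold change was -0.78 (1.72-fold lower, adjusted p = 0.821, and 0.0236 with the term). Between replicate 1 and replicates 2 to 4, with the groups in the model, the log2 difference was -0.94 for SLC25A42 and -1.26 for SLC47A2, and its part in these results was not tested apart from the term.

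The calls made with the array set as a term were not equally firm. SLC20A1, SLC20A2 and SLC25A42 at 3 h, and SLC20A1 and SLC25A25 at 1 h, passed in that model whichever of the 16 arrays was left out. SLC19A3 lost its call in 6 of the 16 fits, with adjusted p up to 0.0963 without DMSO replicate 3. SLC35A1 also lost it in 6, SLC35C1 and SLC35F2 in 7 each, SLC30A1 in 5 and SLC47A2 in 4, with highest adjusted p of 0.0908, 0.0965, 0.128, 0.0892 and 0.0951. These losses all came from leaving out a DMSO or 3 h array, save that SLC35F2 also lost its call without 1 h replicate 1. At 3 h the number of genes called with the term fell to 3 without 3 h replicate 2 and was at most 10. At 1 h it was 2 to 3. The share over all features in these fits is not given, so the counts show no change particular to these genes.

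Leaving 6 h replicates 2 and 4 out of the model, a choice made after the data were seen, also changed the counts at the other times through the shared estimate of the spread. At 3 h 3 genes then passed, with SLC19A3 (adjusted p = 0.0196) and SLC35A1 (0.0468) beside SLC20A1, against 0.93 percent of features, and 13 passed with the array set as a term, against 5.05 percent. At 1 h SLC20A1 and SLC25A25 passed, against 0.61 percent of features without the term and 1.28 percent with it. From 1 to 3 h 0 genes passed without the term (0.345 percent of features) and 3 with it (1.92 percent).

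**Figure D2:**
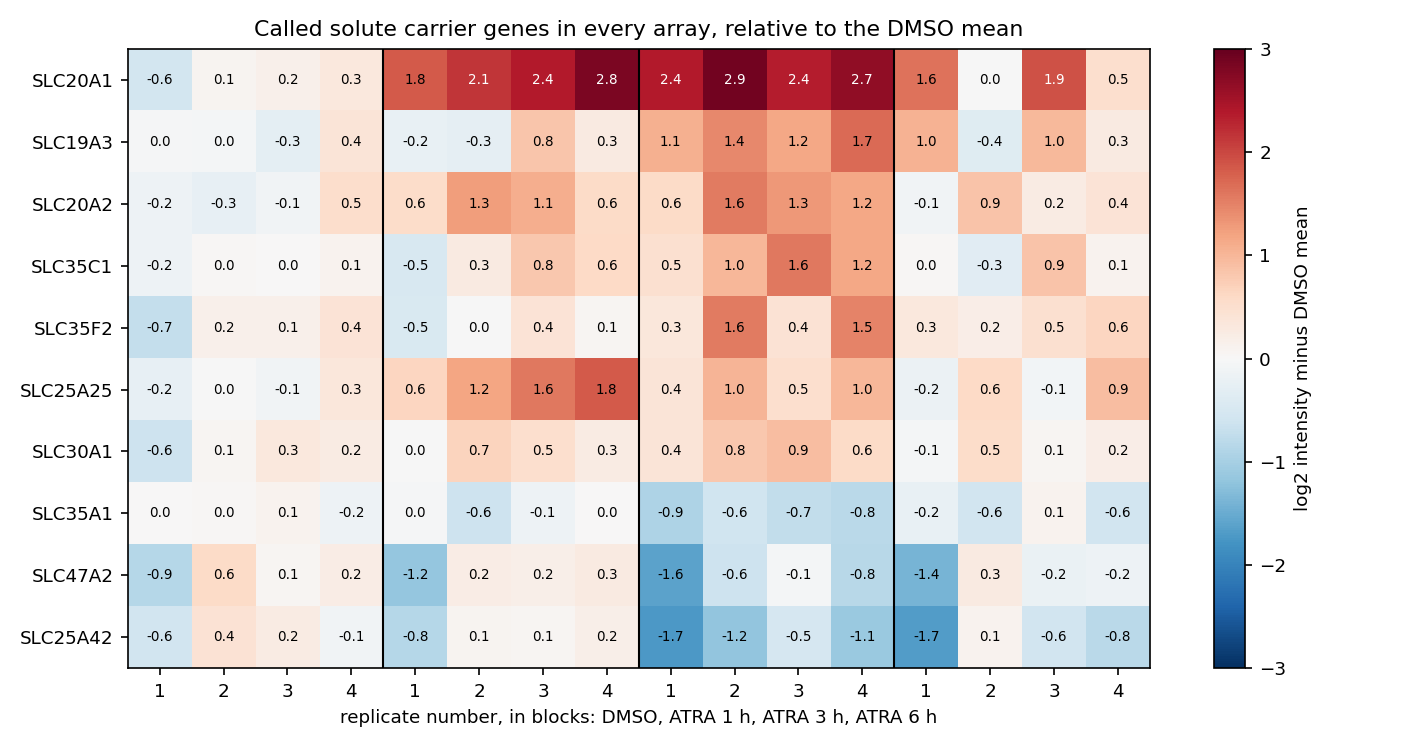
Log2 intensity minus the DMSO mean of the gene, printed in each cell and coloured from -3 (blue) to 3 (red), for the 10 genes called at 1 or 3 h, all except SLC20A1 only with the array set as a term (vertical axis) in the 16 arrays (horizontal axis: replicate number within blocks for DMSO, ATRA 1, 3 and 6 h). SLC20A1 is the darkest line at 1 and 3 h, SLC25A25 is darkest at 1 h, and SLC47A2 and SLC25A42 are low in replicate 1 of every group.

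Without replicate 1 altogether, SLC20A1 (adjusted p = 0.0252) and SLC20A2 passed at 3 h, and the other 7 genes did not. The differences between the replicate 1 arrays alone had the same sign for all 9: 2.94 for SLC20A1, 1.10 for SLC19A3, 1.05 for SLC35F2, 1.00 for SLC30A1, 0.74 for SLC20A2, 0.64 for SLC35C1, -0.75 for SLC47A2, -0.95 for SLC35A1 and -1.15 for SLC25A42. At 3 h 139 of the 159 genes differed by less than 0.5 in log2, and 5 differed at least 2-fold (2.57 percent of all features did). The groups did not overlap for 9 higher genes (5.66 percent, against 3.02 percent of all features) and 2 lower genes (1.26 percent, against 2.3 percent). Besides genes given above, these were SLC25A16, SLC25A25, the mitochondrial iron importer SLC25A28 and SLC37A3 on the higher side and SLC12A9 on the lower side. The glucose transporter gene SLC2A10 at -0.85 and the mitochondrial carrier of basic amino acids SLC25A29 at -0.69 had large differences that were not called.

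**Figure D3:**
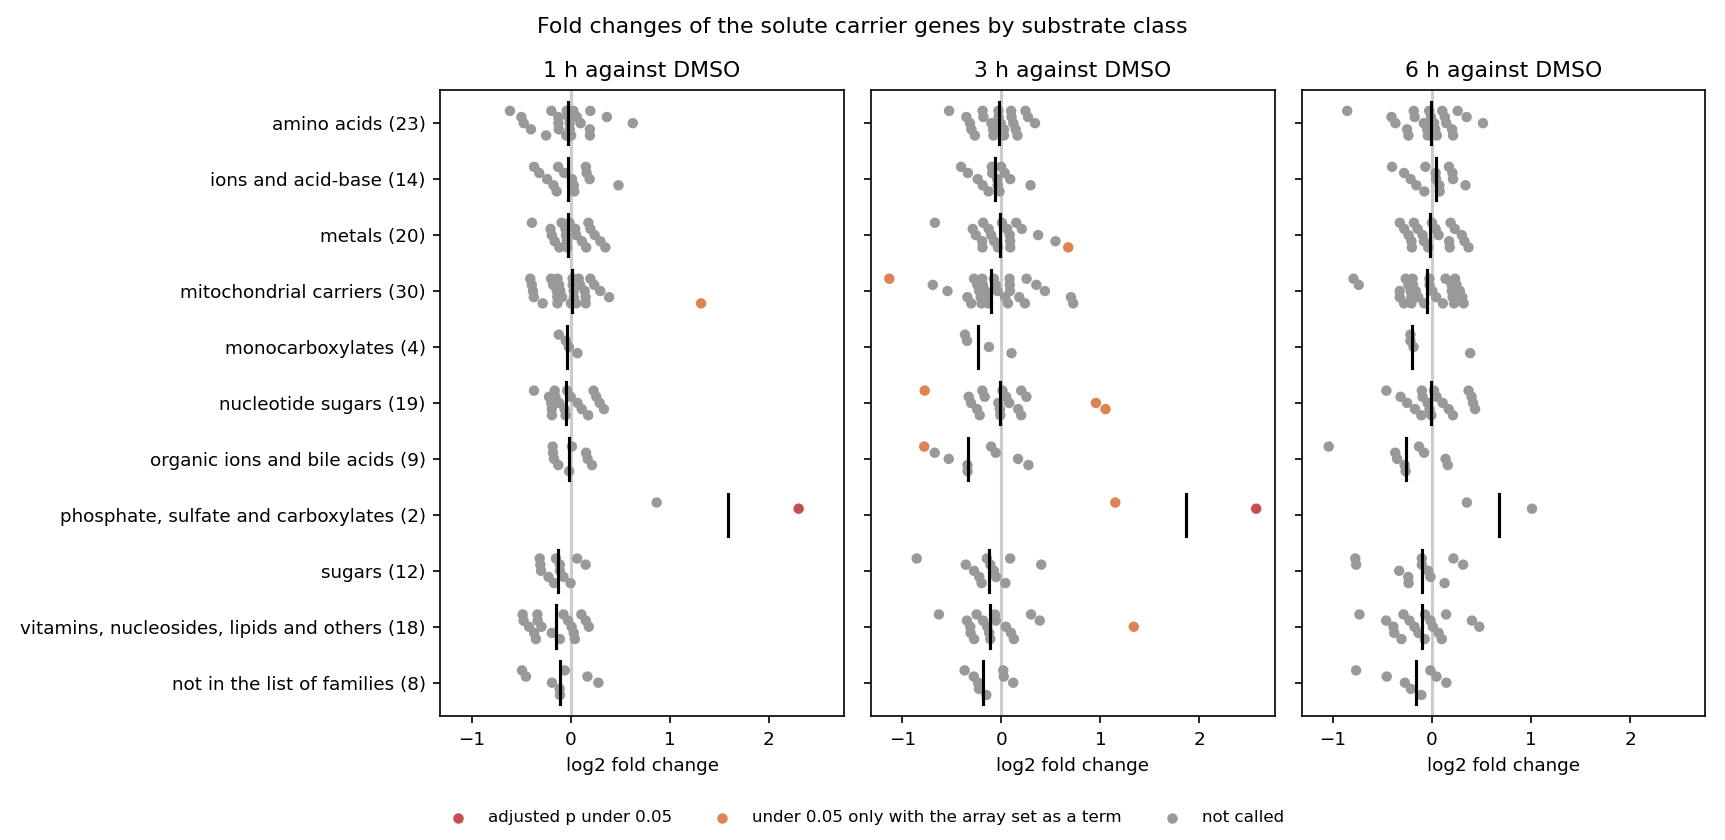
Log2 fold changes against DMSO (x axis) of the 159 genes at 1, 3 and 6 h by substrate class (y axis, number of genes in brackets), one point per gene, with a black bar at the class median. Points for called genes are red, and orange where the call needed the array set as a term; apart from the 2 phosphate transporter genes, all class medians lie between -0.34 and 0.04.

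By substrate class, the 23 genes of the amino acid transporter families had no call in any comparison. They include SLC7A6OS and the pseudogenes SLC7A5P2 and SLC6A10P, and their medians were -0.03, -0.03 and -0.01 at 1, 3 and 6 h against DMSO. The 7 SLC7 genes lay between -0.20 and 0.63 at 1 h, -0.10 and 0.34 at 3 h and -0.41 and 0.51 at 6 h, and the 6 SLC38 genes between -0.47 and 0.37 at 1 h. In the amino acid response list, genes known to respond to amino acid shortage, 10 of 12 genes were tested and ATF3 alone passed, a transcription factor that is also an immediate-early gene. ATF3 rose at 1 h by 3.33 on the log2 scale (10.1-fold, limma adjusted p = 0.00144) and changed from 1 to 3 h by -2.74 (adjusted p = 0.0155). The 7 genes with an SLC2 symbol, among them SLC2A4RG, which encodes no transporter, had no call in either model with all 16 arrays. Of these, SLC2A1, the broadly expressed glucose transporter GLUT1, was at 0.07 at 1 h and 0.09 at 3 h. Its levels were 11.59 ± 0.35 in DMSO, 11.65 ± 0.40 at 1 h, 11.68 ± 0.24 at 3 h and 11.57 ± 0.65 at 6 h (log2, SD, n = 4). The 4 SLC16 monocarboxylate transporter genes lay between -0.37 and 0.10 at 3 h with no call. The 2 sodium-potassium ATPase genes tested, whose pump sets up the sodium gradient that sodium-coupled carriers draw on, were not called.

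The 30 SLC25 genes had median log2 differences of 0.01 at 1 h, -0.10 at 3 h and -0.05 at 6 h. SLC25A25 at 1 h and SLC25A42 at 3 h were the 2 called with the array set as a term. The 9 genes for organic ions and bile acids had medians of -0.02, -0.34 and -0.27, with SLC47A2 at 3 h, called with the array set as a term, the 1 gene that passed in either model. The medians of all 159 genes and of all features at 3 h were -0.08 and -0.04, and the median sizes of the differences 0.19 and 0.17. SLC13, SLC17 and SLC24 genes, with 5, 9 and 6 symbols on the array, contributed no gene at the level used.

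At 6 h against DMSO no solute carrier gene was called, and none of the 12467 features was called by limma with or without the array set as a term (0 percent). With the term and 1 array left out, 0 to 2 solute carrier genes were called. The share over all features in those fits is not given. At an unadjusted p under 0.05 there were 6 of the 159 genes (3.77 percent) and 548 features (4.40 percent). SLC20A1 read 12.65, 11.02, 12.93 and 11.52 in the arrays labelled 6 h. Replicates 1 and 3 were above all DMSO arrays, replicate 2 was inside the DMSO range and replicate 4 just above it, the same split as for CYP26A1. Its log2 fold change was 1.01 (SE 0.36, 2.01-fold) and was not called. It and SLC22A23 were the 2 genes that differed at least 2-fold, against 1.26 percent of all features.

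Without 6 h replicates 2 and 4, an alternative chosen after the data were seen that leaves 2 arrays at 6 h, SLC20A1 rose at 6 h by 1.77 on the log2 scale (SE 0.29, 3.42-fold, limma adjusted p = 0.0274), and it was the 1 solute carrier gene called, against 0.249 percent of all features. With the array set as a term as well, 4 genes passed, against 2.13 percent of features. These were SLC20A1 at 1.89 (adjusted p = 0.00121), the orphan transporter gene SLC22A23 at -1.55 (0.0188), SLC25A42 at -0.91 (0.0395) and SLC2A4RG at -0.65 (0.0443), which carries an SLC symbol but encodes a regulator of the SLC2A4 gene. With all 4 arrays labelled 6 h, SLC25A42 and SLC2A4RG were not called, and the groups of both overlapped. Their log2 means were then 9.03 in DMSO and 8.29 at 6 h for SLC25A42, and 8.61 and 8.28 for SLC2A4RG. SLC2A4RG read 8.60, 8.76, 8.45 and 8.64 in DMSO and 7.75, 8.64, 8.12 and 8.62 in the arrays labelled 6 h. SLC22A23 read 6.87, 8.95, 8.86 and 8.37 in DMSO and 5.72, 8.57, 7.05 and 7.56 in the arrays labelled 6 h. The groups overlapped, and replicate 1 was lowest in both. With all 4 arrays the difference was -1.04, and -0.55 for its second probe, neither called.

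SLC19A3 read 7.49, 6.09, 7.42 and 6.72 in the arrays labelled 6 h, again high in replicates 1 and 3. Its log2 fold change was 0.48, and 1.01 without replicates 2 and 4 (adjusted p = 0.339). SLC25A25 was the opposite case, at 9.22, 10.00, 9.32 and 10.33, with the 2 arrays in doubt the higher ones. Its difference from DMSO was 0.32 with them and -0.13 without.

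SLC7A11, the cystine and glutamate exchanger that supplies cysteine for glutathione, read 6.15, 6.06, 6.43 and 6.35 in DMSO and 6.62, 6.90, 6.58 and 6.95 in the arrays labelled 6 h. The groups did not overlap, and the log2 difference of 0.51 was not called (adjusted p = 0.967). Both groups lay near the filter level of 6. The gene met the level of 6.5 in 4 of the 12 arrays that chose the genes, of which 3 were 6 h arrays and none DMSO, so the choice itself favoured a higher 6 h group. Of the 159 genes, 9 had a group with no array of replicates 2 to 4 at that level. The groups also did not overlap for SLC25A21, at 0.28, and for the pseudogene SLC71A3P, at -0.77, so that 2 genes were higher and 1 lower, against 1.03 and 0.955 percent of all features. Without 6 h replicates 2 and 4 the differences were 0.35 for SLC7A11, 0.22 for SLC25A21 and -0.90 for SLC71A3P. Other large differences at 6 h without a call were -0.86 for SLC1A4, -0.79 for SLC25A51, the mitochondrial NAD importer, -0.77 for the fructose transporter gene SLC2A5, 0.44 for SLC35G2 and 0.41 for SLC35F2. In the same order they were -1.10, -0.71, -1.01, 0.13 and 0.41 without the 2 arrays, also without a call, so the SLC35G2 difference rested on those arrays. For SLC25A51 the second probe differed by 0.17, with the opposite sign.

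**Figure D4:**
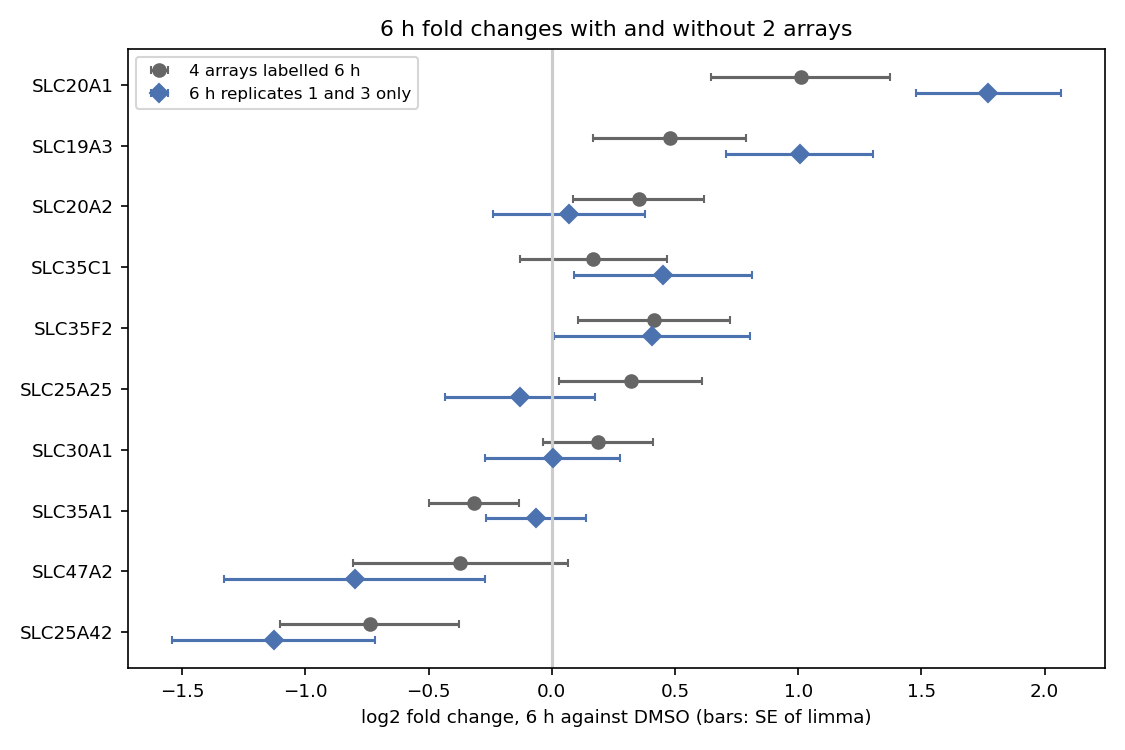
Log2 fold change of 6 h against DMSO (x axis) with bars for limma's SE, for SLC20A1 and the 9 genes called at 1 or 3 h with the array set as a term (y axis), with all 4 arrays labelled 6 h (circles) and with replicates 1 and 3 only (diamonds). SLC20A1 moves from 1.01 to 1.77 and SLC19A3 from 0.48 to 1.01, while SLC25A25 moves from 0.32 to -0.13.

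Between ATRA times, no solute carrier gene was called from 1 to 3 h, against 0.184 percent of all features. At an unadjusted limma p under 0.05 there were 10 of the 159 genes (6.29 percent) and 599 features (4.80 percent). With the array set as a term SLC25A42 fell by 1.00 (adjusted p = 0.0409), against 0.658 percent of features. It lost this call in 10 of the 16 fits that leave out 1 array, with adjusted p up to 0.147 without 1 h replicate 4. Its log2 values at 1 h were 8.19, 9.11, 9.10 and 9.20, and those at 3 h are given above. The groups overlapped through 1 h replicate 1 and 3 h replicate 3. SLC35C1 differed by 0.76 and SLC25A25 by -0.59 with no call. The 1 gene that differed at least 2-fold was SLC19A3, as did 1.36 percent of all features. The groups did not overlap for SLC19A3 and SLC25A28 on the higher side (1.84 percent of features) and SLC12A2-DT on the lower side (1.37 percent). SLC12A2-DT met the level of 6.5 in 4 of the 12 arrays that chose the genes. None of these was a 3 h array, so the choice itself favoured a lower 3 h group.

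From 3 to 6 h no gene was called either, with 0 percent of all features called. At an unadjusted limma p under 0.05 there were 10 of the 159 genes (6.29 percent) and 424 features (3.40 percent). SLC20A1 differed by -1.56 in log2 with no overlap (adjusted p = 0.521), and by -0.80 without 6 h replicates 2 and 4. It was the 1 gene with at least a 2-fold difference, as were 0.963 percent of all features. SLC19A3 at -0.86 also had no overlap. On the higher side, SLC35A1 at 0.46 and SLC25A21 at 0.44 had none, so that 2 genes lay on each side, against 0.594 percent of features higher and 0.57 percent lower.

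A second probe past the filter was present for 35 of the 159 genes. It had the same sign as the first in 24 genes at 1 h, 24 at 3 h and 22 at 6 h against DMSO. Some symbols starting with SLC are not transporter genes: 154 of the 159 are protein coding in RefSeq, 2 are long noncoding RNAs and 3 are transcribed pseudogenes, and SLC2A4RG, SLC4A1AP and SLC7A6OS are named for a neighbour or target. None of the noncoding genes was called.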

How the data were processed

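Values were the authors' deposited log2 intensities, 1 per probe and array, already quantile normalized; limma appears in the submitters' processing notes without a stated role. No source used here states how background was corrected or which log base was taken; every fold assumes base 2. A non-normalized table was not used beyond its row order, since its 16 value columns match no label. In the 4 replicate 1 arrays the values of 77.6 percent of 47230 rows stood 1 row low and were moved up: their correlation across probes with the other arrays went from 0.325 to 0.979. Of the probes, 30113 carried 1 symbol. Probes that reached 6 on the log2 scale in 4 or more of the 16 arrays were kept (15271), with 1 per gene, which gave 12467 features. limma 3.58.1 (R 4.3.3) fitted 4 groups over 16 arrays, without a trend, and p-values were adjusted by Benjamini-Hochberg over all features, two-sided, with a threshold of 0.05 for a call. The number of arrays limits the precision. The code was tested on simulated data. Solute carrier genes and companion lists were chosen with earlier results of these data known. Genes are named by a rule: called genes, those called with the array set as a term, the 5 largest differences in each direction against DMSO, the 10 highest means, the 3 on each side of the level and selected families; SLC61A1, SLC39A1 and others without overlap were named after their values were seen. The fits without 6 h replicates 2 and 4, and the array-set term with single arrays left out, were chosen after seeing the data. Same-numbered arrays did not deviate together in every pair. Correlations of deviations from the means of all 4 arrays of a group were 0.79 to 0.90 among the replicate 1 arrays. They were -0.13 to 0.70 within the other replicate numbers. These means include the replicate 1 arrays, which differed from the others as a set. With group means of replicates 2 to 4 alone, the ranges were -0.22 to 0.42, -0.54 to 0.28 and -0.59 to 0.64 for replicates 2, 3 and 4. Such values cannot settle pairing and no label states it, so whether replicate numbers pair the arrays is not known.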

Additional observations from a re-analysis of the deposited data

Results flagged for a closer look

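In 5 of 100 groups of 4 arrays tested, over 25 named genes, the highest or lowest array stood apart from the other 3 by more than Dixon's 95 percent limit, and chance gives about 1 in 20. In the arrays labelled 6 h, SLC12A2 read 7.76 in replicate 2 against 6.67 to 6.82. The remaining 4 cases were low values in replicate 1. At 3 h, SLC1A4 read 7.02 against 8.60 to 8.79, and SLC2A10 read 5.63 against 6.96 to 7.08. At 1 h, SLC25A42 read 8.19 against 9.10 to 9.20, and SLC47A2 read 7.62 against 8.97 to 9.07. The part of the array set in these values was not tested.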

How the results depend on the processing

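The number of solute carrier genes called was 1 at 1 h and 1 at 3 h against DMSO, and 0 in the other 3 comparisons. With the array set as a term it was 2, 9, 0, 1 and 0 (1, 3 and 6 h against DMSO, 3 against 1 h, 6 against 3 h). With the replicate number as a replicate block it was 2, 9, 0, 1 and 0, where SLC35F2 at 3 h did not pass (limma adjusted p = 0.0505). Calls over all 12467 features with the block were 117, 341, 0, 63 and 0 in the same order. Whether the replicate numbers pair the arrays is not known. Without the 4 replicate 1 arrays 2 solute carrier genes were called at 1 h and 2 at 3 h, against 76 and 94 of all features. With replicate 1 rows as deposited 0 and 0 were called, against 15 and 1 of all features. SLC20A1 then had adjusted p near 1 at both times. Array weights gave 4 at 1 h and 6 at 3 h, while calls over all features went from 71 to 216 and from 65 to 462. The fit of only the 2 groups compared gave 2 at 3 h, against 66 of all features. The fit without the 6 h arrays gave 2 at 1 h and 2 at 3 h, against 71 and 117. Without 6 h replicates 2 and 4 the counts of solute carrier genes were 2, 3 and 1 at 1, 3 and 6 h. With the array set as a term as well they were 2, 13 and 4, and 3 from 1 to 3 h. The shares over all features in these last 2 fits are given above. Leaving out 1 array at a time gave 1 to 2 calls at 1 h, 1 to 2 at 3 h and 0 in the other comparisons: SLC25A25 at 1 h was called without 1 h replicate 1 and without 6 h replicate 4, SLC20A2 at 3 h without 3 h replicate 1, and SLC19A3 at 3 h without 6 h replicate 2. Calls over all features in the fits with 1 array left out are not given. SLC25A51 at 6 h was 0.17 with its second probe, against -0.79; the cause was not tested. The alternatives gave 929 values for 31 pairs of a named gene and a comparison with DMSO. Of these values, 877 kept direction and call, 49 gained a call, 2 lost it and 1 changed sign. SLC25A25 at 6 h was not among the pairs, and its sign changed without 6 h replicates 2 and 4, as given above. Probes near the filter level of 6 have little signal over background, which limits what can be seen for the faintest genes, such as SLC7A11 and SLC19A3.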
